A study of Mus musculus with 18 samples.

Results

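The Snrpn imprinted domain of mouse chromosome 7 was followed through DNA methylation at the CpG sites of 5 genes: Snrpn, Ndn, Magel2, Mkrn3 and Ube3a. A CpG was included when it lay in the body of one of these genes or within 5 kb of it on GRCm38, with at least 10 reads in each of the pools compared. This gave 244 CpGs in gonadal adipose tissue, 219 in hypothalamus and 234 in liver, or 250 positions over the 3 tissues, of 1894641 positions measured genome-wide. Snrpn held 95, 78 and 94 of them in adipose tissue, hypothalamus and liver. Ube3a held 75 in each tissue, Mkrn3 26 and Ndn 20. Magel2 held 28 in adipose tissue, 20 in hypothalamus and 19 in liver. A further 13, 13 and 8 listed CpGs of these genes had too few reads. At the edge of that threshold, the thinnest adipose CpG kept (60317086, in Snrpn) read 71.4% of 14 reads in the BPA pool and 72.7% of 11 in the control pool, and the deepest one left out (60301115, in Snrpn) read 62.5% of 8 and 85.7% of 14.

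The study set out to relate prenatal exposure to bisphenol A (BPA), a monomer of polycarbonate plastics that binds oestrogen receptors weakly, to methylation in the offspring. The BPA group consisted of male C57BL/6 offspring at 3 weeks of age whose dams were gavaged daily with 5 mg/kg BPA, dissolved in corn oil, from day 1 to day 20 after conception, and the control group of male C57BL/6 offspring of the same age whose dams received corn oil alone. Each group had 3 samples in each of the 3 tissues, 18 in all, and the offspring came from 4 BPA litters and 3 control litters. The assay was reduced representation bisulfite sequencing (RRBS), in which the enzyme MspI cuts at CCGG and bisulfite turns unmethylated cytosines into uracil, so that the share of reads keeping a C gives the methylation level.

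Imprinted genes are transcribed from the copy inherited from one parent. In this domain Snrpn, Ndn, Magel2 and Mkrn3 are transcribed from the paternal copy, and a region at the start of Snrpn, the imprinting centre, carries methylation on the maternal copy. Ube3a is transcribed from both copies in most tissues and mainly from the maternal copy in neurons, where a long non-coding transcript that begins in the Snrpn region and runs against Ube3a silences the paternal copy. In humans, loss of the paternal transcripts causes Prader-Willi syndrome and loss of the maternal Ube3a copy causes Angelman syndrome.

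The 5 genes fall into separate blocks on chromosome 7 (GRCm38). Ube3a spans 59228750 to 59310837, Snrpn 59982495 to 60450177, Ndn 62348277 to 62349928, Magel2 62376979 to 62381640 and Mkrn3 62417593 to 62420153. The RefSeq table gives start and end of each gene but no exons or introns, so CpGs are placed by their distance from the start. Snrpn and Snurf share the start used here, at 60005199, and all 101 Snrpn positions also lie in the long non-coding Snhg14, with 22 of them in Snurf, so methylation there cannot be given to one gene model alone. The sequences around 3 of the starts show which CpGs the assay read, because MspI fragments reach these windows. They come from RefSeq (GRCm38.p6), run 5′ to 3′ on the gene's strand from 250 bases before to 50 after the start, and have the measured CpGs in capitals.

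Snrpn, chr7:60005150-60005449, minus strand: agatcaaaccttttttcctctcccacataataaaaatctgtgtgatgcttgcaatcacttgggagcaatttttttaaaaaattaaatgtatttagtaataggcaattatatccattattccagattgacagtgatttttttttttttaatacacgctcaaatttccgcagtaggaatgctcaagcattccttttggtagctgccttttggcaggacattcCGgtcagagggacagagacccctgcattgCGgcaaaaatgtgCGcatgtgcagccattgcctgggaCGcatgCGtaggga

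Mkrn3, chr7:62420104-62420403, minus strand: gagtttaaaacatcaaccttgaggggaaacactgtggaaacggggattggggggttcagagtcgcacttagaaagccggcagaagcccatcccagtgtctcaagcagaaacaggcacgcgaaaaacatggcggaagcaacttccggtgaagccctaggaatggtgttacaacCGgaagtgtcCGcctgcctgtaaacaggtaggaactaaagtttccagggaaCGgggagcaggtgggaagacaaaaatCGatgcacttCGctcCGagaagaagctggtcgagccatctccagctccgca

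Ube3a, chr7:59228500-59228799, plus strand: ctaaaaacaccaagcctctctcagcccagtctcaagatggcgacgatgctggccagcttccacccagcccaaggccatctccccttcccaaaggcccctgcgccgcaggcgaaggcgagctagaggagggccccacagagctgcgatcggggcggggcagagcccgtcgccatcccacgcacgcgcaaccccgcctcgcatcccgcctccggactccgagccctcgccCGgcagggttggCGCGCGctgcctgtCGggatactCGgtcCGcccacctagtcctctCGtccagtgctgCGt

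The Snrpn window held 7 CpGs, of which 5 were measured, including the one at its single CCGG. The Mkrn3 window held 15 CpGs with 6 measured and 3 CCGG sites, and the Ube3a window 29 CpGs with 9 measured and 2 CCGG sites. CCGG, which reads the same on both strands, occurred in 52.8% of all 32851 RefSeq promoter windows. The windows of Ndn and Magel2 held 11 and 10 CpGs, no CCGG and no measured CpG, so for these genes the measured CpGs begin inside the gene, 216 and 252 bp from the start.

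The deposited tables pool the 3 samples of a group, so no value per animal was used, every interval below is a 95% interval for counting error, and every test compares pooled reads and not animals. The pools are numbered 0 and 1; number 0 was read as control because a sample label names control before BPA, and if that reading were reversed all BPA directions here would turn round. Member CpGs had a median depth of 214.5 reads in the BPA pool and 188 in the control pool in adipose tissue, 105 and 108 in hypothalamus, and 164.5 and 159.5 in liver. The squared difference between BPA and control pools, over all tested CpGs, was 1.91 times what counting error gives in adipose tissue, 1.18 times in hypothalamus and 1.18 times in liver. The tissue labels were set against marker genes: in the control pools all 7 hepatocyte genes were least methylated in liver, 3 of 5 adipocyte genes in adipose tissue and 4 of 6 neuronal genes in hypothalamus. Of the other brain lists, 1 of 3 astrocyte genes and 0 of 2 oligodendrocyte genes were least methylated in hypothalamus.

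The imprinting centre was intermediate in methylation in every pool. It was taken as the cluster of 23 measured CpGs around the Snrpn start, chr7:60004650-60005229, and contains the 5 CpGs in capitals of the Snrpn window above. In liver 37.8% of reads were methylated in the BPA pool (36.3 to 39.2) and 38.3% in the control pool (36.9 to 39.7). In adipose tissue the levels were 41.4% (40.1 to 42.6) in the BPA pool and 42.7% (41.4 to 44.1) in the control pool, and in hypothalamus 39.9% (38.2 to 41.6) and 37.1% (35.3 to 38.9). Each of the 23 CpGs lay between 20 and 80% in all 3 control pools. All 6 pools were thus under 50%, the level of one fully methylated copy and one unmethylated copy.

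BPA and control pools differed by under 3 points over the imprinting centre as a whole. The BPA minus control difference was -0.51 points in liver (-2.50 to 1.48), -1.36 points in adipose tissue (-3.17 to 0.45) and 2.80 points in hypothalamus (0.33 to 5.26). Neighbouring CpGs are read on the same molecules and PCR copies may count as reads, so these intervals are too narrow. As a mean of the 23 CpG levels the difference turned to 1.99 points in liver and 0.504 points in adipose tissue, and in hypothalamus it was 0.691 points. The BPA minus control difference changed sign along the region in each tissue. In adipose tissue the 10 CpGs from 60005111 to 60005228, next to the start, were all higher in the BPA pool, by 4.02 to 11.7 points. The 10 CpGs from 60004852 to 60005092 were all lower, by 7.11 to 11.1 points in size, and the 3 from 60004650 to 60004713 were higher again. The 6 CpGs between 60004852 and 60004901 together stood at 36.2% in the BPA pool and 45.2% in the control pool (-9.00 points, -12.6 to -5.40). The stretches were chosen after their values were seen, and none of the 23 CpGs passed the call rule given below in any tissue. At an unadjusted p under 0.05 there were 11 of the 23 in adipose tissue (47.8%, 3 higher and 8 lower in the BPA pool, where 10.1% of all CpGs were), 3 in hypothalamus (13.0%, all higher) and 0 in liver, and neighbours there share reads. The smallest p in the region was at 60005079 in adipose tissue, with 38.3% in the BPA pool and 49.4% in the control pool (adjusted p = 0.112, Fisher's exact test with Benjamini-Hochberg adjustment). The 6 CpGs from 60004852 to 60004901 stood at 38.5% and 38.4% in the BPA and control pools of hypothalamus and at 35.6% and 36.8% in those of liver. The 3 CpGs from 60004650 to 60004713 differed by -10.6 points in hypothalamus (-21.0 to 0.40) and 6.75 points in liver (-0.14 to 13.6). The 14 CpGs from 60005042 to 60005228 differed by 4.04 points in hypothalamus (1.26 to 6.80) and -0.93 points in liver (-3.29 to 1.44). Between 60005042 and 60005092 hypothalamus was higher in the BPA pool, by 8.64 to 12.1 points, where adipose tissue was lower.

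**Figure D1:**
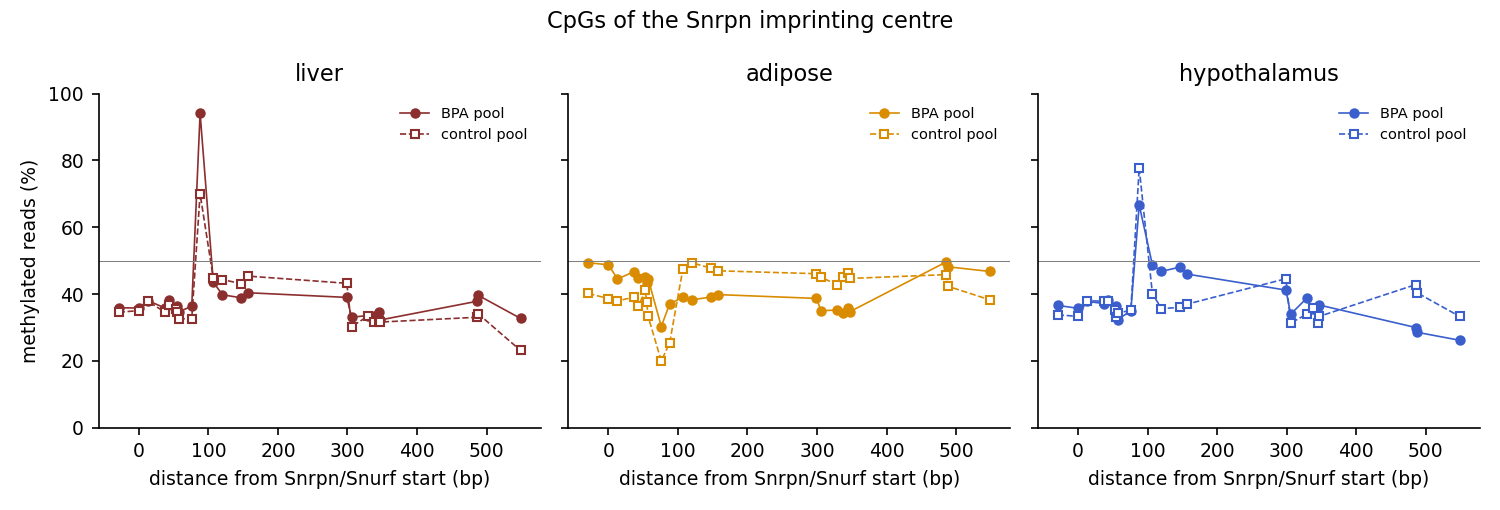
Methylated reads in percent (y axis) at each of the 23 CpGs of the Snrpn imprinting centre, against the distance in bp from the shared start of Snrpn and Snurf (x axis), with filled circles for BPA pools and open squares for control pools; the grey line marks 50%. Most values lie between 20 and 50%; the points at 88 bp in liver and hypothalamus rest on 15 to 20 reads per pool.

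Outside the imprinting centre the summed level of Snrpn was higher than within it. Summed over the measured CpGs between 60012524 and 60440024, the level was 78.2% in the BPA pool and 77.8% in the control pool of liver (71 CpGs), 82.8% and 82.5% in adipose tissue (72 CpGs), and 85.8% and 86.7% in hypothalamus (55 CpGs). In the control pools 33 CpGs in liver, 44 in adipose tissue and 40 in hypothalamus were above 80%, and 37, 27 and 13 lay at 20 to 80%. The lowest CpG of the control pools stood at 15.4% in liver, 12.5% in adipose tissue and 7.14% in hypothalamus. Other lower levels within this stretch included 60068330, at 36.8% in the control pool of liver, 51.2% in that of adipose tissue and 60.9% in that of hypothalamus. At 60169544 the control pools read 34.5% in liver, 56.3% in adipose tissue and 56.7% in hypothalamus. BPA and control levels of Snrpn outside the centre differed by less than 1 point in each tissue, 0.38 in liver, 0.28 in adipose tissue and -0.91 in hypothalamus, and each interval included 0.

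Ube3a, which encodes a ubiquitin ligase, was almost unmethylated at its start. The 73 CpGs from 59228728 to 59229534 read 0.480% in the BPA pool and 0.562% in the control pool of liver, 0.329% and 0.257% in adipose tissue, and 0.798% and 0.306% in hypothalamus. No methylated read was seen at 37 of these CpGs in the BPA pool and 27 in the control pool of liver, at 46 and 49 in adipose tissue, and at 31 and 49 in hypothalamus. The hypothalamus difference of 0.49 points (0.29 to 0.70) has a counterpart over the genome: 168239 CpGs under 1% in the other tissues averaged 0.868% in the BPA pool and 0.459% in the control pool of hypothalamus. The part of that background shift in the Ube3a value was not tested. The 2 other Ube3a CpGs, inside the gene, were methylated. At 59250549 the BPA and control pools read 95.4% and 98% in liver, 97.2% and 97.7% in adipose tissue, and 71.4% and 82.1% in hypothalamus. At 59250664 they read 70% and 77.1% in liver, 92.8% and 95.6% in adipose tissue, and 89.8% and 93.8% in hypothalamus.

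Ndn, Magel2 and Mkrn3 had low to intermediate levels near the start and higher levels further away, and the tissues differed mainly at the far CpGs. Ndn encodes necdin and Magel2 a related protein, both of the MAGE family, and Mkrn3 encodes a ring-finger protein that in humans restrains the onset of puberty. An edge of 800 bp, chosen after the values were seen, divides near from far CpGs, and only CpGs measured in every pool enter the sums. The 15 near CpGs of Ndn read 21.6% in the BPA pool and 19.9% in the control pool of liver, 25.2% and 21.3% in adipose tissue, and 24.2% and 25.8% in hypothalamus. The 20 near CpGs of Mkrn3, which include the 6 in capitals in its window, read 20.5% and 20.2% in liver, 21.7% and 22.6% in adipose tissue, and 20.8% and 22.0% in hypothalamus. The 4 near CpGs of Magel2 read 40.7% and 40.8% in liver, 41.5% and 42.5% in adipose tissue, and 39.2% and 39.6% in hypothalamus. Near the start the 6 pools of a gene lay close together, with the widest range in Ndn, 19.9% to 25.8%.

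Far from the start the hypothalamus was lower in all 3 genes. The 12 far CpGs of Magel2, 972 to 3302 bp from its start, read 80.03% in the BPA pool and 80.3% in the control pool of liver, 84.4% and 87.7% in adipose tissue, but 59.3% and 62.3% in hypothalamus. The 6 far CpGs of Mkrn3, 849 to 965 bp from its start, read 80% and 79.5% in liver, 83.3% and 81.3% in adipose tissue, and 45.4% and 53.8% in hypothalamus. The 5 far CpGs of Ndn lie 1288 to 1473 bp past the end of the gene and read 57.8% and 57.4% in liver, 64.7% and 62.8% in adipose tissue, and 41.5% and 39.8% in hypothalamus. The samples are whole tissues, so a different mix of cell types and a different level per cell cannot be told apart.

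**Figure D2:**
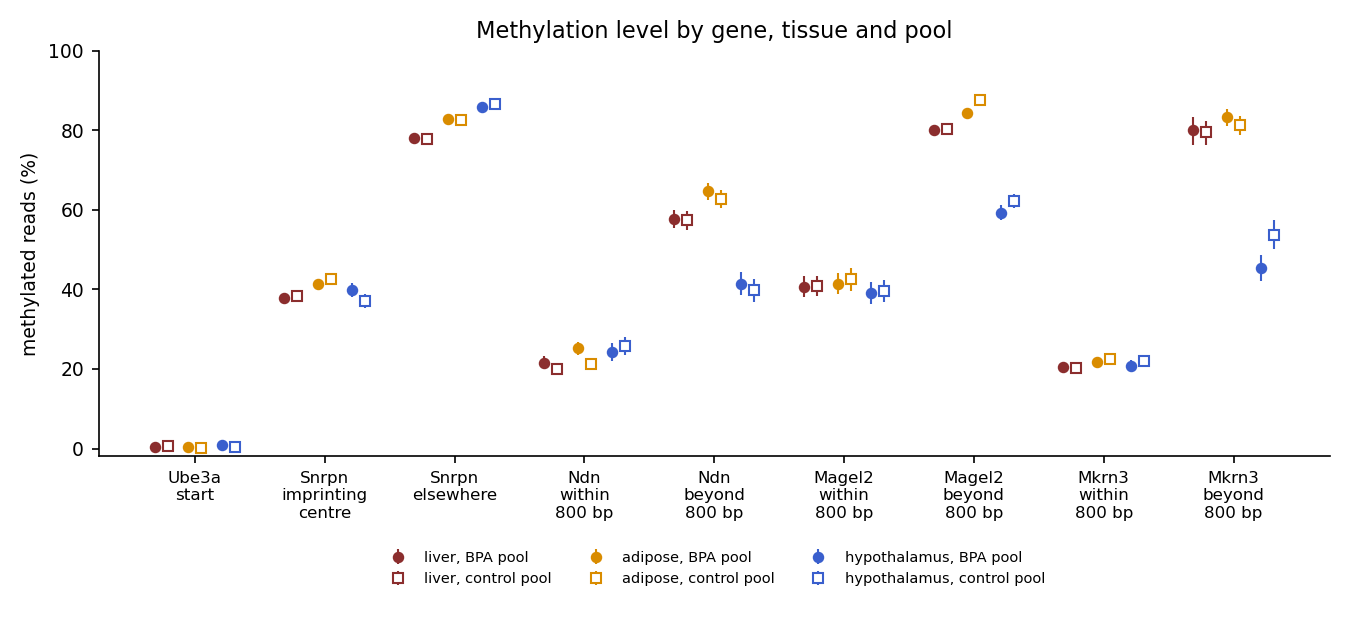
Methylated reads in percent (y axis) summed over the CpGs of each gene stretch, for liver, adipose tissue and hypothalamus, with filled circles for BPA pools and open squares for control pools; bars are 95% Clopper-Pearson intervals for counting error. The far stretches of Ndn, Magel2 and Mkrn3 show hypothalamus below liver and adipose tissue, while in the near stretches and the imprinting centre the 6 pools lie closer together and the Ube3a start lies near 0.

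The tissues were compared CpG by CpG within the control pools, with Fisher's exact test, Benjamini-Hochberg adjustment over all CpGs and a minimum difference of 5 points. Adipose minus hypothalamus, 30 of 224 member CpGs passed, 25 higher and 5 lower in adipose tissue, or 13.4% against 12.9% of all 1586685 CpGs, made up of 3.79% higher and 9.08% lower. Liver minus hypothalamus, 30 of 219 passed, 20 higher and 10 lower in liver, or 13.7% against a background of 16.9%, made up of 5.72% higher and 11.2% lower. Liver minus adipose, 15 of 228 passed, 2 higher and 13 lower in liver, or 6.58% against a background of 16.5%, made up of 8.42% higher and 8.05% lower. With both directions counted, the shares over the domain were near the background or below it. By direction, members and background differed. Against hypothalamus, more members were called higher than lower in adipose tissue (25 and 5) and in liver (20 and 10). Over all CpGs more were called lower than higher in both comparisons. In liver minus adipose the members were mostly lower, where the background was near even. The genes also differed in their share. In adipose minus hypothalamus the calls were 12 of 20 CpGs in Magel2, 7 of 26 in Mkrn3, 6 of 20 in Ndn, 4 of 83 in Snrpn and 1 of 75 in Ube3a. With p scaled by the excess between the pools of a tissue, 19 of the 30 calls in adipose minus hypothalamus were left, all higher, among them 11 of Magel2 and none of Snrpn or Ube3a, or 8.48% of members against 6.57% of all CpGs. The same scaling left 26 of 30 in liver minus hypothalamus (11.9% against 14.7%) and 5 of 15 in liver minus adipose (2.19% against 8.87%).

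The calls of the 3 small genes lay mostly among the far CpGs. The edge of 800 bp was chosen after these values were seen, so the split describes them and is no test. Between adipose tissue and hypothalamus, 12 of 12 far CpGs of Magel2 were called higher in adipose tissue, by 8.37 to 37.1 points, as were 6 of 6 of Mkrn3, by 20.7 to 34.5 points, and 4 of 5 of Ndn, by 6.68 to 30.2 points over all 5. No near CpG of the 3 genes was called higher in adipose tissue, and 2 of Ndn and 1 of Mkrn3 were called lower. Between liver and hypothalamus 9 of 12, 6 of 6 and 4 of 5 far CpGs of Magel2, Mkrn3 and Ndn were called higher in liver. Of all CpGs 3.79% were called higher and 9.08% lower in adipose tissue than in hypothalamus, and 5.72% higher in liver than in hypothalamus. Neighbouring CpGs share reads, so these counts are not that many independent sites.

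Single CpGs show the size of the tissue difference. At Magel2 62377951, 972 bp from the start, the control pools read 89.3% of 243 reads in adipose tissue and 52.2% of 205 in hypothalamus, a difference of 37.1 points (29.0 to 44.7, adjusted p = 1.31e-16, Fisher's exact test). At Mkrn3 62419304 they read 87.6% of 105 reads in adipose tissue and 53.2% of 79 in hypothalamus (34.5 points, 21.4 to 46.4, exact test, adjusted p = 6.92e-06). At Ndn 62351365 they read 79.7% of 380 reads and 49.6% of 236 (30.2 points, 22.5 to 37.5, exact test, adjusted p = 8.11e-13). All 3 CpGs were also called between the BPA pools of these tissues, with 25.3, 34.5 and 28.8 points, and between liver and hypothalamus.

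The largest difference of Snrpn was at 60005111 in the imprinting centre, with 25.4% of 63 reads in the control pool of adipose tissue and 77.8% of 18 in that of hypothalamus (-52.4 points, -68.4 to -26.5, adjusted p = 0.00197, Fisher's exact test). It rests on few reads in hypothalamus, and between the BPA pools of the same tissues it did not pass (exact test, adjusted p = 0.213). The same CpG gave the largest liver minus adipose difference of the centre, 44.6 points in the control pools and 57.0 points in the BPA pools. Liver also had few reads there. In the control pools 3 of the 23 imprinting centre CpGs (13%) were called in adipose minus hypothalamus, 2 higher and 1 lower in adipose tissue. In liver minus hypothalamus 0 were called, and in liver minus adipose 2 (8.7%), 1 higher and 1 lower in liver. Of all CpGs 12.9%, 16.9% and 16.5% were called in these comparisons. At unadjusted p under 0.05 (exact test) there were 4, 1 and 7 of the 23. Over all CpGs these were 333641 of 1586685, 384675 of 1531283 and 419635 of 1639560. The largest difference of Ube3a was at 59250664, with 77.1% in the control pool of liver and 95.6% in that of adipose tissue (-18.5 points, -27.8 to -9.01, exact test, adjusted p = 0.0018). All 8 Snrpn CpGs called between liver and hypothalamus lay outside the imprinting centre and were lower in liver.

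Most calls against hypothalamus recurred between the BPA pools, while fewer of those between liver and adipose tissue did. Of the 30 member calls for adipose minus hypothalamus in the control pools, 22 were called in the same direction between the BPA pools, which is 73.3% of the control calls and 78.6% of the BPA calls. For liver minus hypothalamus 24 recurred, 80% and 88.9%, and for liver minus adipose 6, 40% and 42.9%. No member CpG was called in opposite directions. The recurring share over all CpGs was not computed, so these shares have no background beside them. In the BPA pools 12.6%, 12.4% and 6.03% of members were called in these comparisons, against 13.4%, 16.7% and 15.8% of all CpGs.

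**Figure D3:**
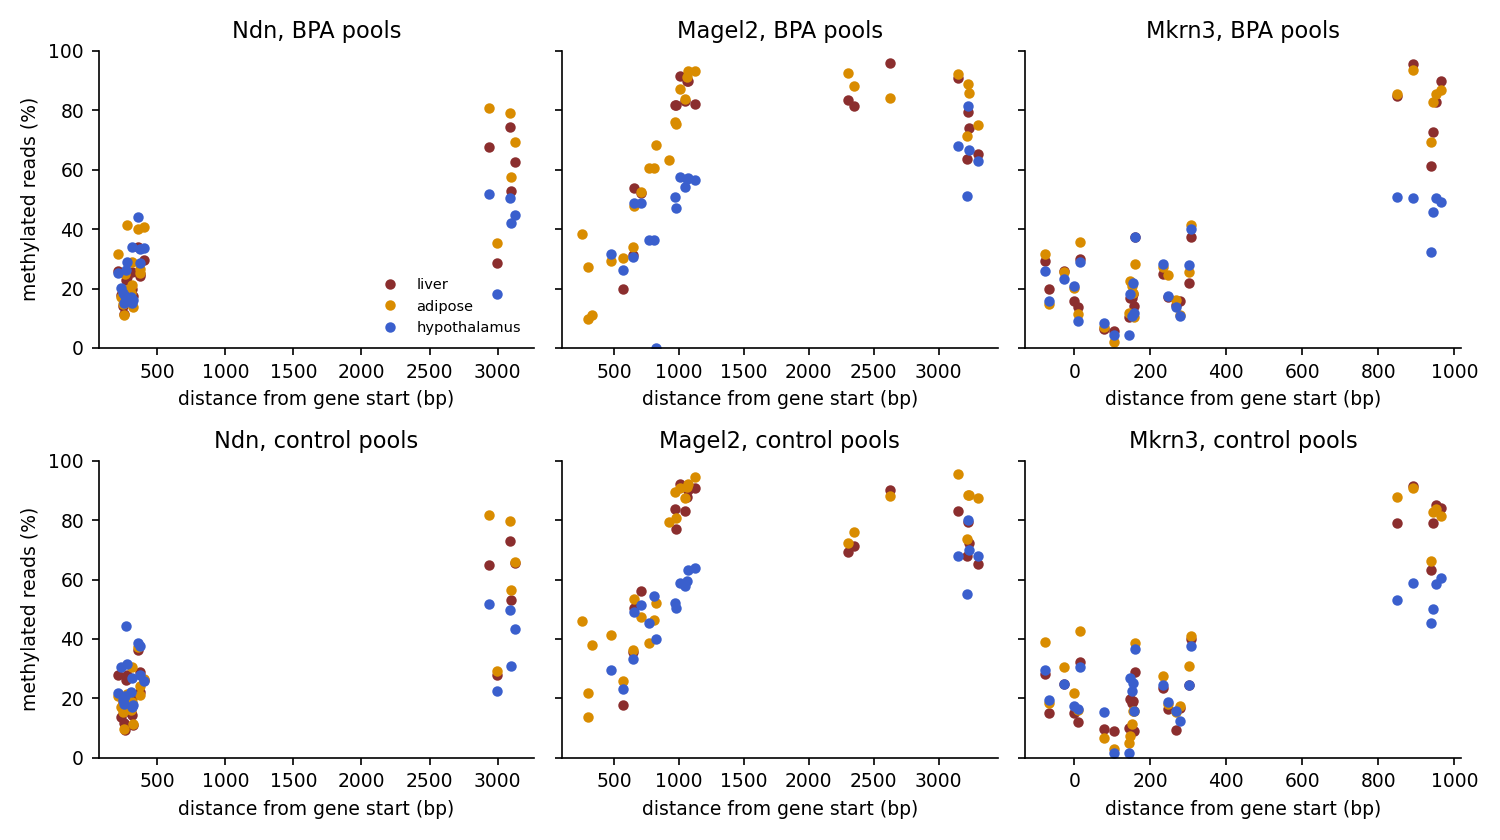
Methylated reads in percent (y axis) at each CpG of Ndn, Magel2 and Mkrn3 against the distance in bp from the gene start (x axis), for the BPA pools above and the control pools below, coloured by tissue. Beyond 800 bp the hypothalamus points lie under most of those of liver and adipose tissue in all 3 genes, while near the start the tissues overlap.

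BPA and control pools were compared per CpG with the deposited Fisher's exact p, adjusted over all nuclear CpGs of a tissue by Benjamini-Hochberg, and a CpG was called at an adjusted p under 0.05 and a difference of at least 5 points. In adipose tissue 3 of 244 member CpGs (1.23%) were called, 1 higher and 2 lower in the BPA pool, where 0.535% of all 1876099 CpGs were (0.252% higher and 0.283% lower). No member CpG was called in hypothalamus, where 0.0058% of all CpGs were, or in liver, where 0.0259% were. At an unadjusted p under 0.05 there were 26 member CpGs in adipose tissue (10.7% of members and 10.1% of all CpGs), 7 in hypothalamus (3.20% and 3.41%) and 5 in liver (2.14% and 4.21%). By the authors' deposited credible difference of at least 5 points, 11 member CpGs passed in adipose tissue (4.51% of members and 2.99% of all CpGs), 2 in hypothalamus (0.913% and 0.858%) and 0 in liver, where 0.995% of all CpGs passed. The shares of the members at the unadjusted threshold were near or under those of all CpGs, and the share called in adipose tissue rests on 3 CpGs. The median absolute difference between the pools over members was 2.61 points in adipose tissue, 2.17 in hypothalamus and 1.91 in liver, against 1.91, 1.79 and 1.77 over all CpGs.

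The 3 adipose calls lay in 3 genes and went in both directions. At Magel2 62377951, the CpG of that gene with the largest difference between control pools of 2 tissues, the BPA pool read 76.1% of 289 reads and the control pool 89.3% of 243 (-13.2 points, -19.4 to -6.76, adjusted p = 0.0245, Fisher's exact test). The same control reading enters the tissue difference and the BPA difference at this CpG, so they are not independent. At Ndn 62348554, 277 bp from the start, the BPA pool read 41.5% of 164 reads and the control pool 21.6% of 148 (19.8 points, 9.54 to 29.5, exact test, adjusted p = 0.0468). At Snrpn 60012812 (-7613 bp from the shared start) the BPA pool read 57.9% of 57 reads and the control pool 85.9% of 92 (-28.0 points, -42.1 to -13.3, exact test, adjusted p = 0.0405). With p scaled by the excess of the difference between adipose pools over counting error, which is 1.91, none of the 3 was called (exact test with scaled p, adjusted p = 1 for each), where 0.00213% of all CpGs were.

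No neighbour of the called CpGs passed the threshold. Ndn near the start had 11 of 15 CpGs higher and 4 lower in the adipose BPA pool, among them 62348678 with 40.8% in the BPA pool and 26.4% in the control pool (adjusted p = 0.088, Fisher's exact test). Magel2 beyond 800 bp had 10 of the 12 CpGs measured in every pool lower, and 12 lower and 6 higher of all 18 measured in adipose tissue (-16.3 to 20.1 points), among them 62380281 with 74.9% and 87.6% (exact test, adjusted p = 0.083). In the other tissues the called CpGs had smaller differences. Magel2 62377951 read 50.8% in the BPA pool and 52.2% in the control pool of hypothalamus, and 81.6% and 83.7% in liver. Ndn 62348554 read 28.9% and 31.5% in hypothalamus and 23.9% and 27.7% in liver, and Snrpn 60012812 read 81.5% and 76.7% in hypothalamus and 77.1% and 65.0% in liver.

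The CpG of Mkrn3 with the smallest p in adipose tissue was 62420006, at 22.4% in the BPA pool and 7.25% in the control pool (adjusted p = 0.0583, Fisher's exact test). For Ube3a it was 59229300, with 2.82% in the BPA pool and no methylated read among 185 in the control pool (exact test, adjusted p = 0.416), which allows a level of up to 1.62% there. In hypothalamus the CpGs with the smallest p were Snrpn 60025218 (84.4% in the BPA pool and 100% of 43 reads in the control pool), Ndn 62351378 (41.9% and 30.8%), Magel2 62377805 (0% and 40%, of 10 reads each, where 0 allows up to 30%), Mkrn3 62419214 (32.3% and 45.5%) and Ube3a 59229148 (1.11% and 0%, which allows up to 1.06%). In liver they were Snrpn 60439961 (88.1% and 75.0%), Ndn 62348600 (17.5% and 11.2%), Magel2 62378101 (82.0% and 90.8%), Mkrn3 62419886 (14.5% and 9.37%) and Ube3a 59229184 (1.69% and 0%, which allows up to 1.60%). None of these passed, and the smallest adjusted p among those of hypothalamus and liver was 0.918, at Magel2 in liver. In hypothalamus all 6 far CpGs of Mkrn3 were lower in the BPA pool, together -8.37 points (-13.1 to -3.55), without a call at any of them.

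**Figure D4:**
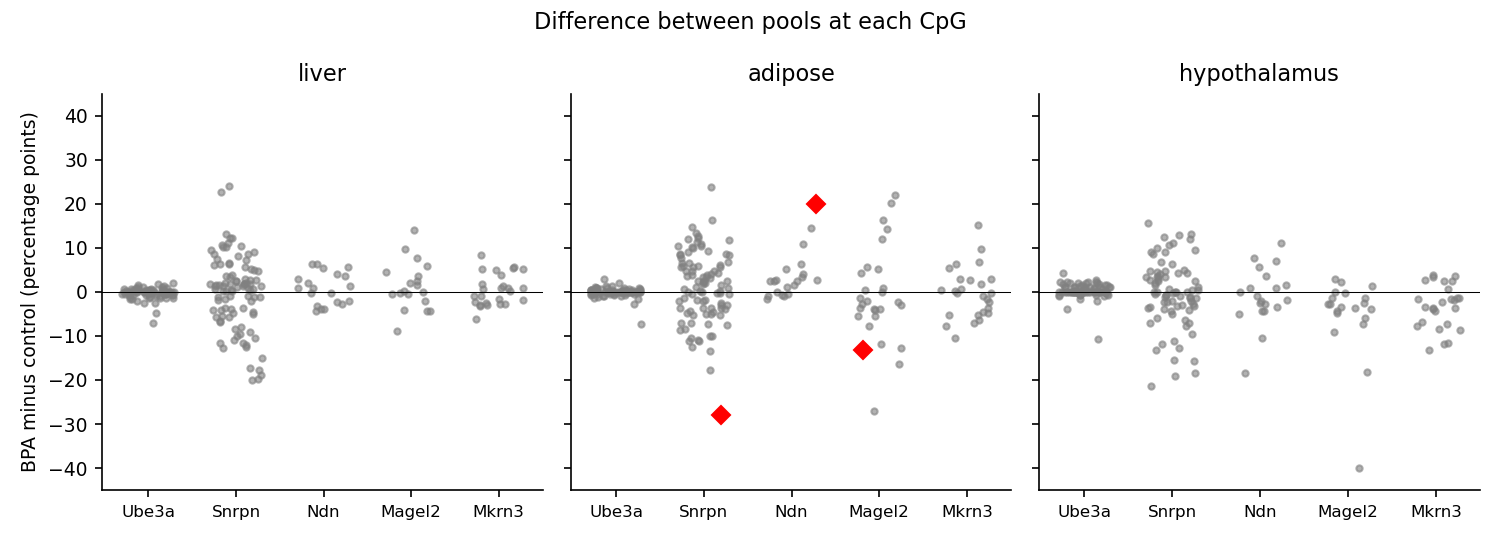
BPA minus control difference in percentage points (y axis) at each member CpG, by gene (x axis, points spread sideways at random) in liver, adipose tissue and hypothalamus; red diamonds are the 3 called CpGs, all in adipose tissue. The adipose calls lie at -28.0, 19.8 and -13.2 points, and a hypothalamus CpG of Magel2 at -40.0 points has 10 reads in each pool.

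Each CpG was also tested for a BPA difference that depends on the tissue, by comparing the log odds ratios of 2 tissues with a Wald statistic. No member CpG passed in any of the 3 pairs, for 219, 215 and 228 CpGs tested in adipose minus hypothalamus, liver minus hypothalamus and liver minus adipose. Over all CpGs 0.0247%, 0.000938% and 0.0391% passed. At unadjusted p under 0.05 there were 15, 5 and 10 members, or 6.85%, 2.33% and 4.39%, against 5.39%, 3.66% and 6.54% of all CpGs, and the smallest adjusted p values were 0.219, 1 and 0.136. The smallest was at Snrpn 60012812, where the difference was 12.1 points in liver and -28.0 points in adipose tissue. A call in adipose tissue and none in another tissue is therefore not shown to be a difference between them.

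The other genes of the region gave few calls. Among 14 of them, 3 of 1061 CpGs (0.283%) were called in adipose tissue, 1 higher and 2 lower, where 0.535% of all CpGs were. In hypothalamus 0 of 949 were called (0.0058% of all CpGs), and in liver 0 of 945 (0.0259% of all CpGs). The median absolute difference was 1.72, 1.70 and 1.78 points. These CpGs include Snrpn members, since all 101 Snrpn positions lie in Snhg14 and 22 of them in Snurf. One of the 3 adipose calls is the Snrpn CpG above, which also lies in Snhg14. The other Snhg14 call is at 59913926, with 15.7% of 2891 reads in the BPA pool and 10.7% of 3495 in the control pool, a depth far above the median of adipose members. The call in Oca2, a melanosome gene, is at 56306025, with 32.1% of 28 reads and 88.0% of 25. In adipose tissue the markers of other cell types also held calls, where 0.535% of all CpGs were called. All 5 of the endothelial list lay in Pecam1 and were lower in the BPA pool (of 186 CpGs, 2.69%). In the hepatocyte list 2 were higher (of 81, 2.47%), and in the oligodendrocyte list 5 were lower (of 247, 2.02%). The leukocyte list had 1 lower (of 55, 1.82%), as had the astrocyte list (of 127, 0.787%). The adipocyte list had 1 higher (of 208, 0.481%). The neuronal list had 2 higher and 1 lower (of 1388, 0.216%), while the epididymis and testis list had none. The median level of the endothelial genes was 53.3% in the BPA pool and 54.8% in the control pool, and their part in the member calls was not tested.

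CpG clusters of other imprinted domains, with at least 8 CpGs and levels between 30 and 70% in all control pools, were set beside the Snrpn centre. In the control pools of liver, adipose tissue and hypothalamus, the Usp29 cluster of the Peg3 domain read 49.5%, 49.4% and 33.5%. The 2 clusters of the Igf2r and Airn domain read 40.8%, 48.1% and 38.2%, and 36.6%, 45.4% and 32.6%, and the Kcnq1ot1 cluster read 38.2%, 44.0% and 33.8%. The Snrpn centre read 38.3%, 42.7% and 37.1%. In the paternally methylated domains the Dlk1 cluster read 50.8%, 45.2% and 30.2%, the Meg3 cluster 41.8%, 41.9% and 41.4%, the H19 cluster 57.4%, 41.1% and 50.7%, and the Igf2 cluster 48.6%, 63.1% and 58.4%. In these control pools hypothalamus was lowest in every cluster except H19, where adipose tissue was lowest, and Igf2, where liver was lowest. At Meg3 the tissues lay close together. The order was not tested, and it changed between pools at the Snrpn and Kcnq1ot1 clusters. In the BPA pools of liver, adipose tissue and hypothalamus the Snrpn centre read 37.8%, 41.4% and 39.9%. The Kcnq1ot1 cluster read 33.3%, 42.0% and 35.9%, so that liver was lowest in both. The Usp29, Igf2r and Airn, Dlk1 and Meg3 clusters kept hypothalamus lowest in the BPA pools. Between adipose tissue and hypothalamus 13.4% of the members here were called, against 5.92% of the CpGs of the Peg3 domain, 40.8% of those of the Igf2r and Kcnq1 domains and 12.9% of those of the paternally methylated domains. In that order, 25, 4, 116 and 39 were higher in adipose tissue and 5, 6, 39 and 20 lower. Between liver and hypothalamus 20, 10, 125 and 47 were higher in liver and 10, 11, 28 and 27 lower. An excess of calls with hypothalamus lower was thus not particular to the members here.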

How the data were processed

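DNA methylation was measured by RRBS in 18 samples. Library input was 100 ng of MspI-digested DNA, which was then bisulfite-treated and amplified, per the labels' protocols. Per the submitters' processing notes, BSMAP served as aligner and GRCm38 (mm10) as genome; the aligner's version and any removal of PCR copies are not given in the sources used here. The authors deposited 1 table per tissue with 2 pools of 3 samples each. Per the file headers, the deposited read count covers both strands of each CpG, each deposited fraction gives the part of those reads that was methylated, and the deposited p-value comes from a Fisher's exact test of one pool against the other. Recomputing 5000 p-values per table gave the same value within 0.6% on 99.6 to 99.8% of them. Methylated reads were taken as fraction times count, rounded. Another column, the authors' credible difference, served only as an alternative.

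CpGs with at least 10 reads in each pool were adjusted together by Benjamini-Hochberg, mitochondrial CpGs left out, and called at an adjusted p under 0.05 and 5 points. Intervals are exact Clopper-Pearson for levels and Newcombe for differences, at 95%, and cover counting error only. PCR copies may count as reads in them, since their removal is not given. A share of 0 allows up to 3 reads of the total. The design planned a logistic model should there be values per sample; there were none. Control pools of different tissues were set against each other by Fisher's exact test, and BPA differences between tissues by a Wald test with 0.5 added to each cell. CpGs at most 300 bp apart were joined into clusters. Within each gene the text names called CpGs, the smallest p in each tissue, the largest tissue difference and clusters of at least 3 CpGs; 62348678, 62380281, 60068330, 60169544 and the gene stretches were added after their values were seen. The members, lists and tests were chosen with earlier results of these data known. Python 3.11.15, NumPy 2.4.6, pandas 2.3.3, SciPy 1.17.1, numba 0.67.0 and matplotlib 3.10.9 were used, and the scripts' tests were checked on simulated data.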

Additional observations from a re-analysis of the deposited data

How the results depend on the processing

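Of 47 alternatives tried on the main results, 39 kept the value within the spread, or the count within 1.5 times, of the one reported. In adipose tissue 3 CpGs were called; scaling p by the excess over counting error left 0, and using the authors' deposited credible difference of at least 5 points in place of the adjusted p gave 11 (6 higher and 5 lower, 4.51% of members against 2.99% of all CpGs). In hypothalamus that difference gave 2, both lower, against 0 (0.913% against 0.858%). The imprinting centre difference in adipose tissue, -1.36 points, was 0.504 as a mean of CpG levels. With CpGs joined at most 100 bp apart it was 0.660, but that setting keeps only the 14 CpGs of chr7:60005042-60005229, a part of the centre. In liver, -0.511 points became 1.99 as a mean of CpG levels, and in hypothalamus 2.80 became 0.691. The direction in adipose tissue and liver is thus not set. With p scaled by the excess between pools of a tissue, a setting chosen after seeing the data, adipose minus hypothalamus gave 19 calls, all higher in adipose tissue, against 30, liver minus hypothalamus 26 against 30, and liver minus adipose 5, all lower, against 15. The cause of these changes was not tested. Under that scaling Magel2 kept 11 of its 12 calls, Ndn 4 of 6, Mkrn3 4 of 7, and Snrpn and Ube3a none. No paired analysis was possible because the tables hold pools and no value per sample; for the same reason leaving out replicates and the replicate block were not run. Read depth limits what single CpGs can show, most in hypothalamus.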
